A study of Homo sapiens with 4 samples.

Results

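The NFE2 family of cap'n'collar transcription factors (NFE2, NFE2L1, NFE2L2 and NFE2L3), their competitors BACH1 and BACH2, their small MAF partners (MAFF, MAFG and MAFK) and the adaptor KEAP1 were followed in U87 cells given carnosine. These 10 genes were taken by symbol from the 58219 genes of the deposited count table, where each occurred once. NFE2 and NFE2L2 were chosen by their counts in these same libraries, for being higher with carnosine, so their difference is given as a description, with no test. The other 8 entered by family.

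U87 cells are an established line from a human glioblastoma. Carnosine, a dipeptide made of beta-alanine and histidine, is found mainly in muscle and brain. All cultures grew in high-glucose medium without pyruvate, with 10% serum, and were given fresh medium 24 h after seeding. That medium held 50 mM carnosine for 2 libraries and no carnosine for the 2 control libraries, and RNA was taken after a further 24 h. Total RNA depleted of ribosomal RNA was sequenced. The labels name a single cell line and do not say whether replicates were separate cultures, so the p values reflect how much these samples vary, and that variation may be purely technical.

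Cap'n'collar factors bind DNA as dimers with a small MAF protein, which has no activation domain of its own. NFE2L2, better known as NRF2, is held in the cytoplasm and sent for degradation by KEAP1 and a cullin ubiquitin ligase until electrophiles or oxidants modify KEAP1, and it then turns on antioxidant and detoxifying genes. NFE2L1, or NRF1, is anchored in the endoplasmic reticulum and turns on proteasome genes when proteasomes are short. BACH1 takes the same DNA sites as a repressor and lets go of them when it binds heme. NFE2 itself is known for globin and platelet genes in blood cell precursors. Much of this control acts on the proteins, which were not measured here.

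The shared DNA site is the antioxidant response element, with the core TGACNNNGC, and BACH, MAF and AP-1 proteins also recognise sequences of the type TGANTCA. Promoter windows of RefSeq (GRCh38.p14, 250 bases before to 50 after a start) were searched on both strands for these and for the cyclic AMP response element TGACGTCA. Some letters can match more than 1 of them. Windows were held for 8 of the 10 genes, 14 windows in all, and not for NFE2 and MAFK. The response element core occurred in 2 of the 14 windows, of MAFF and KEAP1, and in 13.3% of all 35116 windows. The type TGANTCA occurred in 1 window of BACH1 and in 7.71% of all windows, and TGACGTCA in 1 window each of BACH2 and MAFF and in 1.85% of all windows. These stretches of 30 bases are shown because they hold each match in the family, with GCLM, a target gene described later, beside KEAP1. Capitals mark the match, letters run 5′ to 3′ in the direction of the gene, and a match on the other strand reads reversed and complemented.
KEAP1 site nearer its start, chr19:10502783-10502812, minus strand: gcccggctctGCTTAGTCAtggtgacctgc
KEAP1 site farther from its start, chr19:10502806-10502835, minus strand: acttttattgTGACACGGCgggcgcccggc
GCLM, chr1:93909445-93909474, minus strand: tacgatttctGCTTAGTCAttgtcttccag
MAFF response element core, chr22:38201862-38201891, plus strand: cttccaggggGCGGGGTCAtacgggggcgg
MAFF cyclic AMP element, chr22:38201929-38201958, plus strand: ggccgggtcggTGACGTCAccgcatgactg
BACH2, chr6:90296907-90296936, minus strand: tggggagcgggTGACGTCAgcgccgaatgt
BACH1, chr21:29298863-29298892, plus strand: cgcggaaggagTGAGTCAcctgaccgctgc

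KEAP1 and GCLM held the same 9 letters. No match lay in the 2 windows of NFE2L2. The window without exonic bases, at 76.8% G and C, is shown because NFE2L2 is one of the genes picked for its difference, and a match is only a match of letters.
NFE2L2, chr2:177264132-177264381, minus strand: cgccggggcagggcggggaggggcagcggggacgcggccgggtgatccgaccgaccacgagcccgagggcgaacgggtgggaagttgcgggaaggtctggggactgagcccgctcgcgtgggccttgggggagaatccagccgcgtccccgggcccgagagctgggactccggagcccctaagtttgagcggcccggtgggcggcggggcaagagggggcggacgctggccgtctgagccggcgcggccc

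Library totals ran from 51632970 to 71766267 counts, and 16340 genes had enough counts to be tested, 9 of the 10 family members among them. Expression is given as CPM, counts scaled to a common library size after TMM normalisation, and errors of CPM are SDs of 2 libraries. A gene was called changed at an adjusted p under 0.05 in edgeR's quasi-likelihood test over all genes tested. The label of a glioblastoma line was set against 10 marker genes. VIM, FN1, TNC, CD44, SPARC and CHI3L1 were abundant, with all 10 summing to between 14111 and 15841 CPM per library. NES had between 23.7 and 44.0 CPM, while GFAP, S100B and SOX2 had at most 16 counts in any library. In such bulk RNA, fewer cells that express a gene and less RNA of it per cell cannot be told apart.

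NFE2, the blood cell factor, was scarce in controls and several times higher with carnosine. It had 92 and 78 counts in control replicates 1 and 2, and 431 and 326 counts in carnosine replicates 1 and 2. Both carnosine libraries lay above both controls. Its level was 1.31 ± 0.0251 CPM in controls and 6.82 ± 0.490 CPM with carnosine (n = 2 each), 5.20-fold higher, a log2 fold change of 2.38. With any 1 library left out the log2 fold change stayed between 2.30 and 2.44. Measured per kilobase of annotated exons, NFE2 stood at percentile 24.2 of all genes tested in the controls and at percentile 46.8 with carnosine.

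The gene (ENSG00000123405.13) lies on the minus strand of chromosome 12, 54292111 to 54301121 (GRCh38), with 5 annotated transcripts. GENCODE 29 lists no exon of the opposite strand that shares bases with its exons. COPZ1, a coat protein subunit of Golgi vesicles, starts 81 bases away in the other direction, and its log2 fold change was -0.07 ± 0.11 (SE; edgeR adjusted p = 0.722). HNRNPA1, an RNA-binding protein and the nearest tested gene on the other side, had -0.48 ± 0.13 (adjusted p = 0.0754). Neither neighbour passed, and neither lay above 0.

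Markers of the blood lineages in which NFE2 is best known were at or near 0. Of 18 erythroid and megakaryocyte markers, 12 had no count in any library, among them GATA1, KLF1, HBB and PF4. The 18 summed to 7.55 and 8.80 CPM in the controls and 6.61 and 7.80 CPM with carnosine, nearly all from TBXAS1, the thromboxane synthase, and 1 of them had enough counts to be tested. Of 8 leukocyte markers, 5 had no count, and the 8 summed to at most 0.528 CPM in any library.

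NFE2L2 had 5593 and 4336 counts in control replicates 1 and 2, and 9604 and 8086 counts in carnosine replicates 1 and 2. The carnosine libraries, at 159.7 and 160.6 CPM, lay close together and above both controls, at 78.7 and 73.9 CPM. Its mean was 76.3 ± 3.37 CPM in controls and 160.1 ± 0.618 CPM with carnosine, higher by 1.07 on the log2 scale. With any 1 library left out the log2 fold change ran from 1.02 to 1.11.

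NFE2L2 (ENSG00000116044.15) lies on the minus strand of chromosome 2, 177227595 to 177392697. Of its 5979 exonic bases, 54 also lie under exons of AGPS, a peroxisomal enzyme of ether lipid synthesis on the opposite strand, and 190 under those of the antisense RNA AC079305.1. AGPS was at -0.06 ± 0.10 on the log2 scale (adjusted p = 0.755), and AC079305.1 had at most 6 counts in a library. HNRNPA3, on the other side, had -0.31 ± 0.12 (adjusted p = 0.149). AC019080.1, a noncoding gene on the same strand within the span of NFE2L2, had 143 and 111 counts in controls and 80 and 54 with carnosine. Its log2 fold change was -0.70 ± 0.28 (adjusted p = 0.163). Also tested on that strand within the span were DNAJC19P5, at 0.13 ± 1.09 (adjusted p = 0.955), and AC019080.5, at 0.02 ± 0.55 (0.984).

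**Figure D1:**
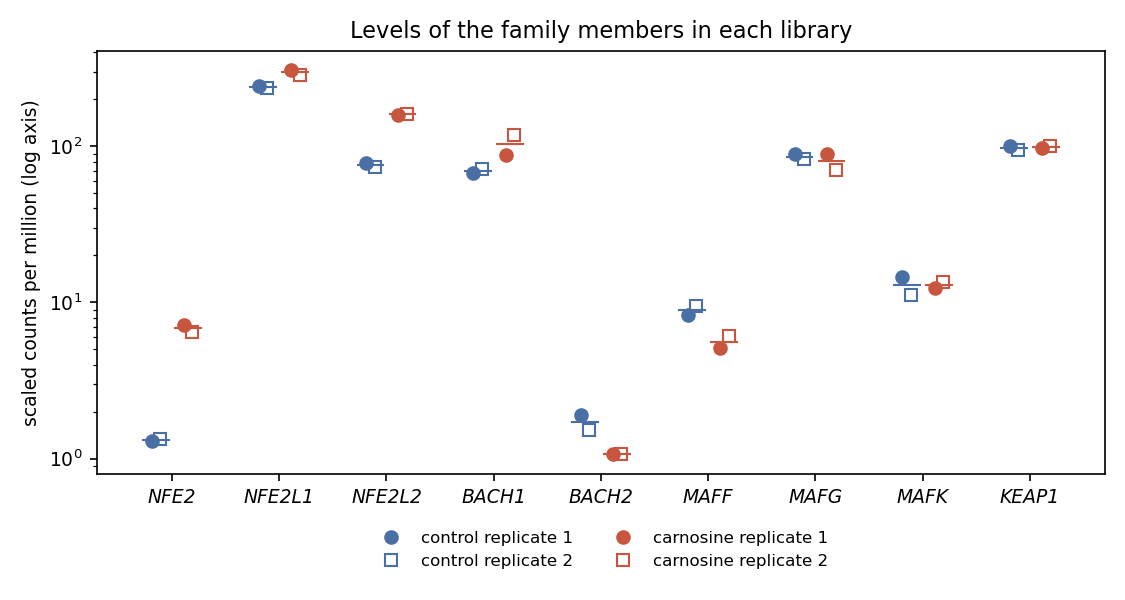
CPM (log axis) of the 9 tested members in each of the 4 libraries, with circles for replicate 1, open squares for replicate 2 and short lines for group means. NFE2 and NFE2L2, which were picked for their rise, have both carnosine libraries above both controls. Among the others, the groups do not overlap for NFE2L1 and BACH1 (higher) or BACH2 and MAFF (lower). The libraries of MAFG, MAFK and KEAP1 overlap, and 56.5% of all genes tested show no overlap.

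None of the 7 other members that could be tested passed the edgeR test, where 8.31% of all genes did. At an unadjusted p under 0.05 there were 3 of 7, NFE2L1, BACH1 and MAFF, against 27.4% of all genes. DESeq2 called 2 of 7, BACH1 and MAFF, against 13.5% of all genes, and limma-voom called none, against 8.09%. The libraries of the groups did not overlap for 4 of the 7, 2 higher and 2 lower, where 56.5% of all genes tested showed this. The median log2 fold change of the 7 was 0.0006, beside 0.0009 over all genes tested.

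NFE2L1 was the most abundant member per kilobase in either group. It had 243.8 and 235.9 CPM in control replicates 1 and 2, and 308.7 and 286.9 CPM in carnosine replicates 1 and 2. Both carnosine values lay above both controls, and the difference of 0.31 ± 0.11 on the log2 scale did not pass (edgeR adjusted p = 0.113). NFE2L3, a factor found in placenta and some tumours, had 3 counts in control replicate 1 and no count elsewhere. It missed the filter of the main test, and 3 counts correspond to between 0.0422 and 0.0595 CPM in these libraries.

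The repressor BACH1 had 67.7 and 71.9 CPM in control replicates 1 and 2. With carnosine it had 88.4 CPM in replicate 1 and 117.5 CPM in replicate 2, so the libraries did not overlap but the carnosine pair stood farther apart than the controls. The log2 fold change was 0.56 ± 0.15 (adjusted p = 0.0612). It was 0.75 with an adjusted p of 0.00945 without carnosine replicate 1, and 0.34 with an adjusted p of 0.114 without carnosine replicate 2. DESeq2 gave an adjusted p of 0.00800, and scaling by total counts alone gave 0.0461 in edgeR.

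BACH2, the form known from B cells, was scarce, with 136 and 89 counts in controls and 64 and 54 with carnosine. Both carnosine libraries, at 1.06 and 1.07 CPM, lay below both controls, at 1.91 and 1.52 CPM. The log2 fold change of -0.68 ± 0.29 did not pass (adjusted p = 0.189).

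Of the small MAF genes, MAFF, which can be induced by stress and cytokines, had the lowest log2 fold change. It had 595 and 558 counts in controls, and 305 counts in each carnosine library. In CPM the controls were 8.37 and 9.51 and the carnosine libraries 5.07 and 6.06, with no overlap. The log2 fold change was -0.68 ± 0.17 (adjusted p = 0.0556). It did not pass in edgeR with all libraries, while DESeq2 gave an adjusted p of 0.0164 and edgeR without carnosine replicate 2 gave 0.0376.

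MAFG, the most abundant small MAF gene, had 88.8 and 83.4 CPM in controls and 89.8 and 70.8 CPM with carnosine. The groups overlapped, at -0.10 ± 0.13 (adjusted p = 0.677), and its log2 fold change was 0.06 without carnosine replicate 2. MAFK had 14.6 and 11.1 CPM in controls and 12.3 and 13.5 CPM with carnosine, and a difference of 0.0006 ± 0.16 on the log2 scale (adjusted p = 0.999). Of the exonic bases of MAFK, 18.1% also lie under exons of TMEM184A on the opposite strand, which had at most 10 counts in a library.

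KEAP1, the adaptor that marks NFE2L2 for degradation, had 100.5 and 94.2 CPM in controls and 98.0 and 99.98 CPM with carnosine. The carnosine values lay within the range of the controls. The log2 fold change was 0.02 ± 0.10 (adjusted p = 0.904), and -0.03 without control replicate 2.

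**Figure D2:**
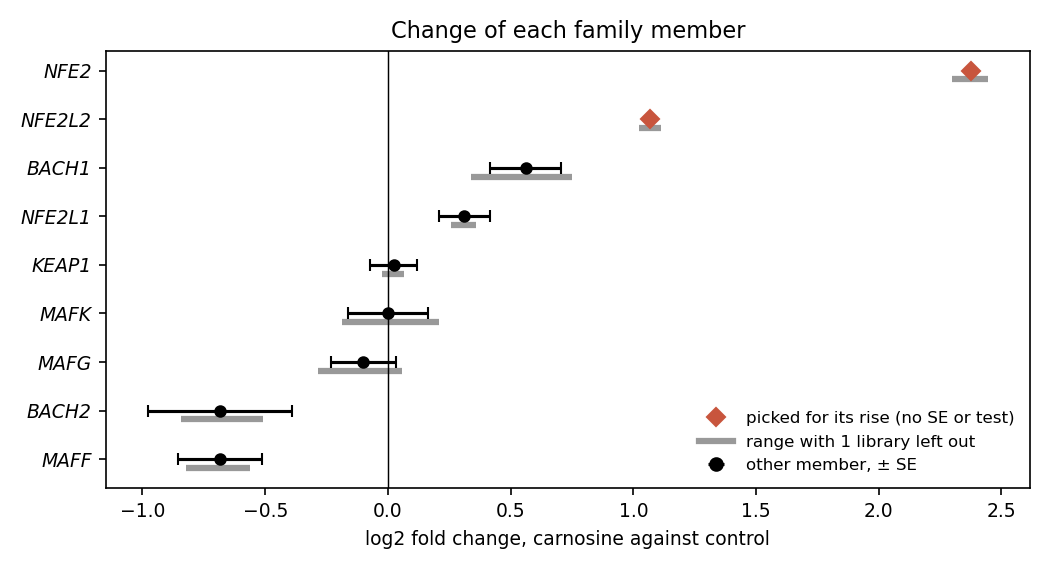
Log2 fold change, carnosine against control, of the 9 tested members. Black points have SE bars, red diamonds mark NFE2 and NFE2L2, which were picked for their rise, and grey bars give the range with 1 library left out, which includes 0 for MAFG, MAFK and KEAP1.

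Levels of different genes were compared as CPM per kilobase of the exons annotated in GENCODE 29, all transcripts of a gene merged. In controls the order was NFE2L1 (41.2 ± 0.961), KEAP1 (25.9 ± 1.19), MAFG (16.5 ± 0.733), NFE2L2 (12.8 ± 0.563) and BACH1 (9.04 ± 0.383). MAFK (2.88 ± 0.553), MAFF (1.59 ± 0.144), NFE2 (0.531 ± 0.0102) and BACH2 (0.175 ± 0.0286) followed, and NFE2L3 came last at 0.00496 CPM per kilobase. No neighbours in this order overlapped between libraries.

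With carnosine, NFE2L1 (51.1 ± 2.65) was followed by NFE2L2 (26.8 ± 0.103) and KEAP1 (26.3 ± 0.372) per kilobase, so that NFE2L2 stood beside its inhibitor and above MAFG (15.4 ± 2.58). MAFG and BACH1 (13.3 ± 2.67) overlapped between libraries, as did MAFK (2.89 ± 0.186) and NFE2 (2.76 ± 0.198). MAFF (0.991 ± 0.124) and BACH2 (0.109 ± 0.000587) came below them. These levels depend on the annotated exons, since reads were counted per gene and not per transcript.

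The ratio of NFE2L2 to KEAP1, both per kilobase, was 0.492 and 0.493 in control replicates 1 and 2, and 1.02 and 1.01 in carnosine replicates 1 and 2. The ratio of NFE2L2 to BACH1 was 1.50 and 1.33 in controls and 2.33 and 1.76 with carnosine. Both rest on NFE2L2 and are descriptions. The ratio of BACH1 to KEAP1, which does not use the picked genes, was 0.328 and 0.372 in controls and 0.440 and 0.573 with carnosine. Its libraries did not overlap, but an exact two-sided permutation test of 2 against 2 libraries cannot give a p below 0.333.

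NFE2L1 made up 75.4% and 75.8% of the summed level of the 4 NFE2 and NRF genes in controls, and 64.2% and 62.6% with carnosine. NFE2L2 made up 23.7% and 23.1% in controls and 32.3% and 34.1% with carnosine, and NFE2 at most 3.51% in any library. Among small MAF genes, MAFG held between 76.8% and 82.5% in all 4 libraries, with no separation of the groups. The summed small MAF level was 0.337 and 0.321 of the summed NFE2, NRF and BACH level in controls, and 0.222 and 0.188 with carnosine. MAFG and MAFK overlapped between groups, and NFE2L1 and NFE2L2 make up most of the sum they are set against. The NFE2 and NRF shares and this ratio rest on the picked genes NFE2 and NFE2L2 and are descriptions. The share of NFE2L1 was lower with carnosine although its own CPM was higher in both carnosine libraries than in both controls.

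**Figure D3:**
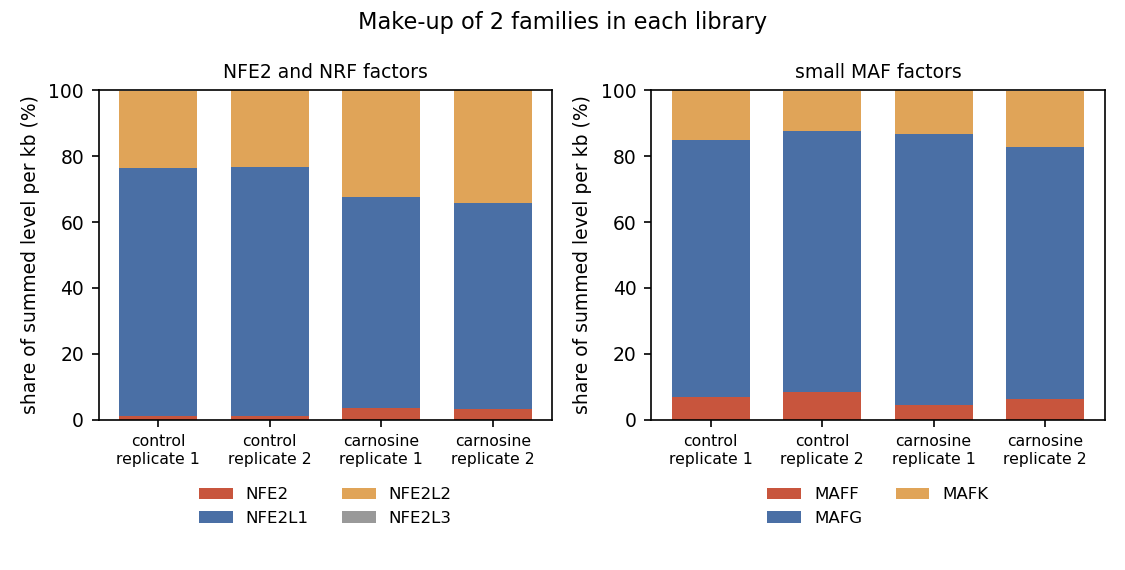
Stacked bars of the share (%) of the summed level per kilobase that each gene takes, for the NFE2 and NRF genes (left) and the small MAF genes (right), in each of the 4 libraries. The share of NFE2L2, which was picked for its rise, is 23.1% and 23.7% in controls and 32.3% and 34.1% with carnosine. MAFG stays the largest small MAF share throughout.

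Large MAF factors, which have an activation domain, were read beside their small relatives. Of these, MAF and MAFA had no count in any library. NRL, the rod photoreceptor factor, had at most 29 counts in a library and a difference of -0.41 ± 0.52 on the log2 scale (adjusted p = 0.666).

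Genes that regulate the NRF proteins showed no call. None of 19 passed in edgeR, among them the ubiquitin ligase subunits CUL3 and RBX1 that work with KEAP1, where 8.31% of all genes passed. At an unadjusted p under 0.05 there were 4 of 19, against 27.4% of all genes. The median log2 fold change was -0.02, beside 0.0009 over all genes tested. With libraries scaled by total counts alone these medians were 0.003 and 0.0255. DESeq2 called 2 of 19, against 13.5% of all genes, both higher and named after their values were seen. GSK3B, a kinase that marks NFE2L2 for a second ubiquitin ligase, had 0.44 ± 0.12 (edgeR adjusted p = 0.0642), and BTRC, the subunit of that ligase that binds the marked protein, had 0.39 ± 0.10 (0.0578). SQSTM1, or p62, which draws KEAP1 into autophagy, had 1238 and 1283 CPM in controls and 1373 and 1079 CPM with carnosine, with overlap. VCP, the segregase that extracts NFE2L1 from the endoplasmic reticulum, had -0.23 ± 0.12 (adjusted p = 0.253).

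Known target genes of NFE2L2 went both ways. Of 31 listed, 28 were tested, 2 rose, 3 fell and 23 did not pass, where 3.95% of all genes rose and 4.36% fell. Unadjusted, 9 of 28 had an edgeR p under 0.05, 4 higher and 5 lower, against 27.4% of all genes. The median log2 fold change was -0.14, beside 0.0009 over all genes tested. With TMM 20 of 28 lay below 0, where 49.9% of all genes tested did. The count of 20 was the same with each of 3 other scalings. With those, 7691 to 8024 of all 16340 genes lay below 0. The list counts established targets in other cells, and some of them answer to other factors too.

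The steroid-reducing aldo-keto reductase AKR1C1 rose most. It had 101.2 and 47.9 CPM in control replicates 1 and 2, and 372.4 and 244.3 CPM in carnosine replicates 1 and 2. Both carnosine libraries lay above both controls, and replicate 1 lay above replicate 2 in both groups. The log2 fold change was 2.05 ± 0.36 (4.13-fold, adjusted p = 0.0234), and 2.68 without control replicate 1 and 1.60 without control replicate 2. AKR1C3 rose by 0.70 ± 0.15 on the log2 scale (adjusted p = 0.0414), from 48.8 and 37.1 CPM to 75.5 and 63.9 CPM. Its call ended without control replicate 2 (adjusted p = 0.144) and without carnosine replicate 1 (0.0676). AKR1C2, named after its value was seen, had 0.62 ± 0.29 (adjusted p = 0.220). With 1 library left out its log2 fold change ran from 0.25 to 1.13, and it passed without control replicate 1 (adjusted p = 0.0158). These genes are near-identical neighbours, so how reads with several matches were treated bears on each count.

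SLC7A11, the cystine importer, fell from 50.5 and 68.2 CPM in controls to 33.3 and 20.3 CPM with carnosine. The libraries did not overlap, and the log2 fold change was -1.14 ± 0.24 (adjusted p = 0.0379). GCLM, the modifier subunit of the enzyme that starts glutathione synthesis, whose promoter match is shown above, had 38.1 and 38.8 CPM in controls and 28.1 and 23.2 CPM with carnosine. Its log2 fold change was -0.58 ± 0.12 (adjusted p = 0.0364). Leaving out control replicate 1 took the adjusted p to 0.0926, control replicate 2 to 0.108 and carnosine replicate 2 to 0.0570. TALDO1, an enzyme of the pentose phosphate pathway, fell by 0.44 ± 0.10 (adjusted p = 0.0438). Its adjusted p lay between 0.0570 and 0.240 whichever of the 4 libraries was left out, so no such fit kept the call.

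With libraries scaled by total counts alone, AKR1C3 (adjusted p = 0.0528), SLC7A11 (0.0589) and GCLM (0.0665) no longer passed, while AKR1C1 and TALDO1 did.

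HMOX1 and NQO1, widely used readouts of NFE2L2, were named after their values were seen. HMOX1, the heme oxygenase, had 46.0 and 89.7 CPM in controls and 35.3 and 31.5 CPM with carnosine. The libraries did not overlap, yet the controls stood far apart, and the log2 fold change of -1.02 ± 0.28 did not pass (adjusted p = 0.0690). It passed without control replicate 1 (adjusted p = 0.000452) and in DESeq2 (0.00204). Without control replicate 2 the log2 fold change was -0.47 (adjusted p = 0.167). NQO1, a quinone reductase, had 1224 and 789.4 CPM in control replicates 1 and 2 and 1047 and 624.8 CPM in carnosine replicates 1 and 2. The gap between replicates of a group was larger than that between groups, at -0.27 ± 0.28 on the log2 scale (adjusted p = 0.598). Within each replicate number NQO1 was lower with carnosine. With that number as a block its edgeR adjusted p was 0.0149, in a fit where 35.3% of all genes passed.

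The ferritin chains, with the most counts of the target genes, were measured beside other heme and iron genes. FTL had 2498 and 2283 CPM in controls and 2117 and 2125 CPM with carnosine (log2 fold change -0.17 ± 0.13, adjusted p = 0.426), and FTH1 had -0.14 ± 0.14 (0.593). Both have many pseudogenes that can take their reads. Of 14 heme and iron handling genes 12 were tested and none passed in edgeR, where 8.31% of all genes did, and 4 of 12 had an unadjusted p under 0.05, against 27.4% of all genes. DESeq2 called 4 of 12, against 13.5% of all genes, and these were named after their values were seen. These were HMOX1, PPOX of heme synthesis and the heme transporter SLC48A1, all lower, and FLVCR1, a heme exporter, which was higher. The list's median was -0.15. HMOX2 and SLC40A1 had no count in any library. GENCODE 29 lists transcripts of HMOX2 outside the primary assembly, so its 0 may depend on the treatment of such copies, which was not tested. Such transcripts are also listed for ABCC1, DCAF11, NEDD8, PSMB1 and PSMC4, which had at least 284 counts in each library. They are listed too for NRL and the leukocyte marker PTPRC, which were scarce.

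Proteasome genes, the known targets of NFE2L1, lay almost all a little below 0. Of 31 tested, 2 fell, 0 rose and 29 did not pass, where 4.36% of all genes fell and 3.95% rose. Unadjusted, 14 of 31 had an edgeR p under 0.05, all lower, against 27.4% of all genes in either direction. The libraries of 23 did not overlap, all lower, where 28.8% of all genes tested were lower in this way. The median log2 fold change was -0.24, and 30 lay below 0, where 49.9% of all genes tested did. The count of 30 was the same with 3 other scalings. PSMD4, a ubiquitin receptor of the regulatory particle, had 180.1 and 182.1 CPM in controls and 125.8 and 130.7 CPM with carnosine, and fell by 0.50 ± 0.10 (adjusted p = 0.0317). PSMD7, a subunit of the lid, had 137.6 and 141.9 CPM in controls and 99.8 and 99.98 CPM with carnosine, and fell by 0.48 ± 0.10 (adjusted p = 0.0317). Neither overlapped between groups. Without control replicate 1 the adjusted p values of PSMD4 and PSMD7 were 0.127 and 0.117, and without control replicate 2 they were 0.161 and 0.172, past the threshold in neither case. PSMD4 also missed it without carnosine replicate 1 (0.0545). The members with the most counts, PSMD2 and PSMA7, had -0.09 ± 0.11 (adjusted p = 0.653) and -0.16 ± 0.11 (0.401). PSMB3, a subunit that every proteasome needs, had at most 1 count in a library and was not tested. It too has annotated transcripts outside the primary assembly, whereas none of the 10 family members does.

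**Figure D4:**
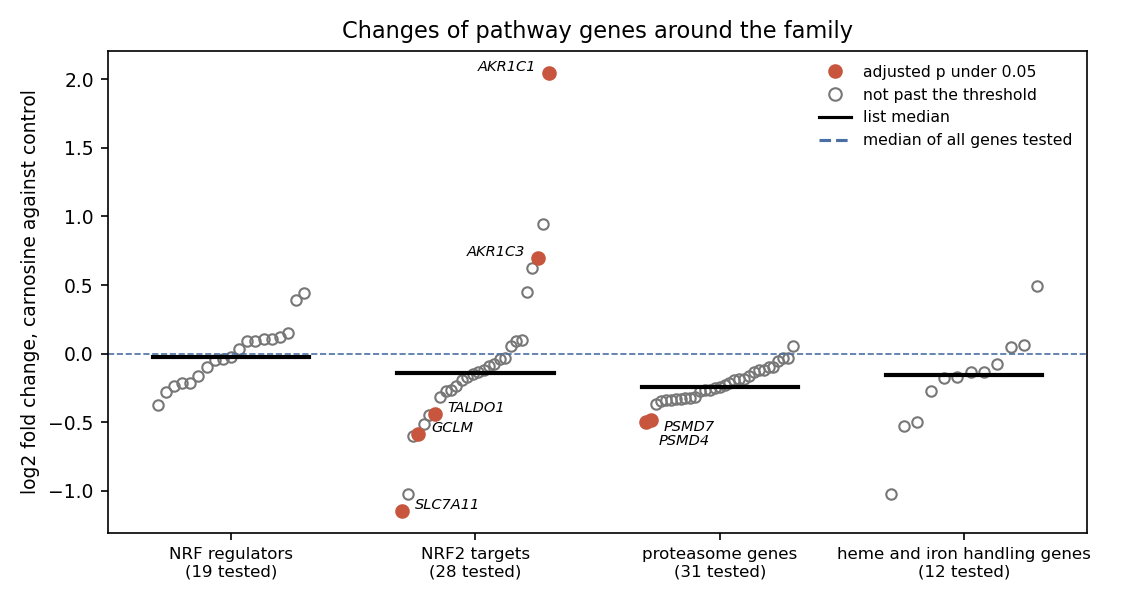
Log2 fold changes, carnosine against control, of each tested gene in 4 pathway lists, in order of size within a list. Filled red points passed the edgeR test, black lines are list medians from -0.24 for proteasome genes to -0.02 for NRF regulators, and the dashed line is the median of all genes tested.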

How the data were processed

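The tools listed for the counts, per the submitters' processing notes, are HTSeq 0.6.1, HISAT2 2.1.0 and bcl2fastq 2.17.0, with the build hg38. The authors deposited raw counts per gene. Not given in the sources used here: annotation release, strand setting and treatment of reads with several matches. These bear on overlapping genes and near-identical copies.

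Genes passing edgeR's filterByExpr (a count of 10 in 2 libraries, total of 15) were kept and scaled by TMM. The two-sided quasi-likelihood test of edgeR 4.0.16, with 2 residual degrees of freedom, was run with Benjamini-Hochberg adjustment over 16340 genes, in R 4.3.3. SE is the absolute log2 fold change divided by the square root of F. DESeq2 1.42.0, limma 3.58.1 with voom, other scalings, other filters, a replicate block and each library left out, with genes filtered again, were alternatives. The tests were tried on simulated data. Coordinates are from GENCODE 29.

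The members and lists were chosen with earlier results of these data known. Members are named in full, as are up to 6 genes past the threshold and the 2 with the most counts per list, some large MAF genes, and neighbours of NFE2 and NFE2L2. Replicates were not copies of a library, with a chi-square of 36.6 times its degrees of freedom for controls and 57.6 times for carnosine. There were 0 columns of other samples. Some listed genes are not reported here.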

Additional observations from a re-analysis of the deposited data

How the results depend on the processing

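Of all genes tested, 1358 passed in edgeR, 2211 with DESeq2, 3145 with no filter on low counts, and 505 to 1595 with 1 library left out (635 without control replicate 1, 505 without control replicate 2). Such fits have 1 residual degree of freedom and assume that a lone library varies like the other group. They tested 16975 to 17207 genes. The edgeR count is 8.31% and the DESeq2 count 13.5% of 16340 genes, and that with no filter is 12% of 26103. DESeq2 left some genes with few counts, such as CD14 and GFAP, without an adjusted p, and its share counts these as not passing. Scaling by total counts alone gave 1150 of 16340. Tested were 7 members other than NFE2 and NFE2L2, 19 NRF regulators, 28 NRF2 targets, 31 proteasome genes and 12 heme and iron genes. With no filter there were 8 such members, 29 NRF2 targets and 32 proteasome genes. Of family members other than NFE2 and NFE2L2, 0 passed, 2 with DESeq2, 1 with total counts only (BACH1), 2 with no filter (BACH1 and MAFF), and 0 to 1 with a library out. NRF regulators went from 0 to 2 with DESeq2, 3 with no filter and 0 to 1 with a library out. NRF2 targets went from 5 to 2 with total counts only, 11 with no filter and 3 to 6 with a library out, lowest without control replicate 2 or carnosine replicate 2. Proteasome genes went from 2 to 4 with no filter and 0 to 4 with a library out, 0 without either control. Heme and iron genes went from 0 to 4 with DESeq2, 4 with no filter and 0 to 1 with a library out. The cause was not tested. With the replicate number as a block these counts were 5767 of all 16340 genes (35.3%) and 3 of 7 members (NFE2L1, BACH1 and MAFF). They were 6 of 19 for regulators, 15 of 28 for NRF2 targets, 18 of 31 for proteasome genes and 5 of 12 for heme and iron genes. The labels give shared numbers and no shared culture or day. Deviations of same-numbered libraries correlated with r = 0.45 across genes, over 2 pairs. The labels do not state a pairing, and the main fit did not take the numbers as pairs. Signs turned for some genes that had not passed. MAFK had -0.00045 in limma-voom, -0.0024 with no filter, and -0.19 to 0.21 with 1 library left out (-0.07 without carnosine replicate 2). With 1 library left out, MAFG ran from -0.29 to 0.057, KEAP1 from -0.026 to 0.067, SQSTM1 from -0.23 to 0.12, NRL from -1.03 to 0.045 and NQO1 from -0.69 to 0.080. NFE2 and NFE2L2 stayed above 0 under each alternative run, which is only a description, since both were picked for their rise in these same libraries. NFE2L3, with 3 counts in control replicate 1 only, missed the main filter. It entered the fit with no filter on low counts and did not pass there.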

Other observations

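Replicates of a group differed in many antioxidant target genes. Of 28 tested NRF2 targets, 17 were higher in replicate 1 than in replicate 2 in both groups, where 32.1% of all genes tested were, a difference that was not tested. NQO1, AKR1C1, AKR1C3 and EPHX1 were among them. Of 31 proteasome genes, 1 showed this order. NFE2L1 and MAFG showed it among the family members, MAFG with 88.8 against 83.4 CPM in controls and 89.8 against 70.8 CPM with carnosine. Whether same-numbered libraries shared a culture or day is not given, and its part in these values was not tested.

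Of the 8 line markers tested, 1 passed the edgeR test, where 8.31% of all genes did. This was CHI3L1, a secreted protein often high in glioblastoma. It rose from 115.8 and 118.7 CPM in controls to 175.4 and 168.9 CPM with carnosine. The log2 fold change of CHI3L1 was 0.55 ± 0.10 (adjusted p = 0.0243). It did not pass without control replicate 1 (adjusted p = 0.129) or control replicate 2 (0.119), and it was named after its value was seen.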
